A study of Mus musculus with 4 samples.

Results

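Promoter peaks of protein-coding genes were examined in 4 lists of open chromatin regions, 1 for each of 4 muscles. A peak was taken when its annotation class was promoter-TSS and its gene type was protein-coding. This gave 8811 of 30136 peaks (29.2%) in the extensor digitorum longus (EDL), 9797 of 40337 (24.3%) in the quadriceps (Quad), 8743 of 28784 (30.4%) in the soleus (Sol) and 8531 of 21582 (39.5%) in the diaphragm (Dia). They belonged to 10463 genes with such a peak in at least 1 list, of which 10445 were matched by Entrez ID to the 21900 protein-coding genes of the RefSeq table. That is 47.7% of the table, and 30.8% of the table had a promoter peak in all 4 lists. By list the share of the table was 38.5% (EDL), 42.2% (Quad), 38.4% (Sol) and 37.8% (Dia).

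The lists came from ATAC-seq, an assay that tags accessible DNA with adapters carried by the Tn5 transposase, on muscle of wild-type C57BL/6 mice without exercise training, which the study's methods give as young adult males of the C57BL/6J substrain. EDL and Quad are mainly fast, glycolytic hindlimb muscles, Sol is a slow, oxidative hindlimb muscle, and Dia is the breathing muscle of the trunk. Each muscle was represented by 1 list, labelled as pooled, so that no spread between animals could be measured, no difference between muscles was tested, and the intervals given here cover counting error only. Whole frozen muscle was pulverised, so nuclei of vessels, connective tissue and nerve were included, and fewer nuclei of a type and lower accessibility per nucleus cannot be told apart.

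A promoter is the stretch of DNA around the start of transcription where general factors and RNA polymerase II assemble. At active or poised genes it is usually kept free of nucleosomes, which is what the transposase detects. Promoters of genes used in most cells tend to lie in CpG islands and often carry binding sites for SP1 (the GC box), NF-Y (the CCAAT box) or ETS factors, whereas many tissue-restricted genes have CpG-poor promoters with a TATA box or sites for lineage factors such as MEF2 in muscle.

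Peak sequences of the kinds that recur below are shown first. Each is the part of a deposited peak that lies upstream of the annotated start and outside every exon of the RefSeq and GENCODE annotations, read 5′ to 3′ on the strand of the gene from the mouse assembly GRCm38.p6, the mm10 build of the lists. Capitals mark the CCAAT box (CCAAT or its reverse complement ATTGG), the GC box (GGGCGG or CCGCCC), the ETS core (CCGGAA or TTCCGG), the TATA box (TATAAA or TTTATA), the CRE (TGACGTCA) and the MEF2 site. They were picked, after their values were seen, to show a promoter near the top of every list, promoters listed in 1 muscle alone, and promoters of muscle genes. Sp1 (chr15:102405841-102406049, plus strand) and Zfp143 (chr7:110061555-110061631, plus strand) are from the EDL list and were among the highest-scored promoter peaks of all 4 lists.
Sp1: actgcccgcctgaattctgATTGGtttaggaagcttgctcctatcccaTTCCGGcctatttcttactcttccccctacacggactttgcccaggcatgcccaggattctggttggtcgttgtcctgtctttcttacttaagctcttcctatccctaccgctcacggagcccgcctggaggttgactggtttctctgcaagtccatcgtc
Zfp143: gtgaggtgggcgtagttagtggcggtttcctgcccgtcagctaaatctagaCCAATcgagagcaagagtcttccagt
Mef2d (chr3:88142235-88142365, plus strand) was listed in EDL alone, Dusp1 (chr17:26508551-26508739, minus strand) in Quad alone and F11r (chr1:171437388-171437534, plus strand) in Dia alone.
Mef2d: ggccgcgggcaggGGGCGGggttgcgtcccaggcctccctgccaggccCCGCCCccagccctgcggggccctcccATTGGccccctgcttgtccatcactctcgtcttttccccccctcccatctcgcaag
Dusp1: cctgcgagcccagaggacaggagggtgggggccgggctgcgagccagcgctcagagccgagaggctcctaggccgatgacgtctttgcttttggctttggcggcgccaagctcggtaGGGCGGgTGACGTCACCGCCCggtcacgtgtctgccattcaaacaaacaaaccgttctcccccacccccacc
F11r: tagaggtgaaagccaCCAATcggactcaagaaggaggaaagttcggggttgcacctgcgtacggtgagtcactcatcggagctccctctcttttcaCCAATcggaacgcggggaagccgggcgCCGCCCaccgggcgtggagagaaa
Myh4 (chr11:67237676-67237811, plus strand) was listed in EDL and Quad, Myl3 (chr9:110763440-110763645, plus strand) in Sol alone, Rpl3l (chr17:24732472-24732610, plus strand) in every muscle but Dia, and Dupd1 (chr14:21714587-21714795, minus strand) in all 4 with higher ranks in EDL and Quad.
Myh4: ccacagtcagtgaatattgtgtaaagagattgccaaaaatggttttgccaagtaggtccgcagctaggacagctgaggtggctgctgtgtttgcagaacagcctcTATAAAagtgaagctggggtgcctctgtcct
Myl3: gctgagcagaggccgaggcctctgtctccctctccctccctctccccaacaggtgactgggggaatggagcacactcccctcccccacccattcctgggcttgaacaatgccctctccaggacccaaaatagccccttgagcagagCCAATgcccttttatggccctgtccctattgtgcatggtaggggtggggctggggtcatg
Rpl3l: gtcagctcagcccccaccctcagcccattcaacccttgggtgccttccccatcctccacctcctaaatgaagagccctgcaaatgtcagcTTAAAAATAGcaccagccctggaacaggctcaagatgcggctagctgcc
Dupd1: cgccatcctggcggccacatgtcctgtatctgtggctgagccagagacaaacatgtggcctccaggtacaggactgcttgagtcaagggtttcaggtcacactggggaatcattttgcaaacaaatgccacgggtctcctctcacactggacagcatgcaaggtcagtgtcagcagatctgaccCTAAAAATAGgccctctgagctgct
Counted from the start, with upstream positions negative, the TATA box of Myh4 begins at -31, the MEF2 site of Dupd1 at -35 and that of Rpl3l at -123. The Mef2d, Dusp1 and F11r stretches hold GC boxes, and those of Myh4, Myl3, Rpl3l and Dupd1 hold none.

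Most genes with a promoter peak had one in every muscle. Of the 10463 genes, 6751 had one in all 4 lists (64.5%, 95% Wilson interval 63.6 to 65.4), 1319 in 3 (12.6%), 1057 in 2 (10.1%) and 1336 in exactly 1 (12.8%, 12.1 to 13.4). The genes found in all 4 made up 79.9% of the genes of the EDL list, 72.9% of the Quad list, 80.2% of the Sol list and 81.5% of the Dia list. Among genes in 3 lists, Dia was the missing one for 498, Sol for 332, EDL for 298 and Quad for 191. Among genes in 1 list, 662 were in Quad, 282 in Dia, 210 in Sol and 182 in EDL. The longest list, Quad, thus had the most genes of its own and was the one least often missing, and Dia, the shortest, was most often missing. When each list was limited to its 20000 highest-scored peaks, the single-muscle counts were 317 for Quad, 616 for Dia, 213 for Sol and 177 for EDL, so the order of Quad and Dia turned around with list length.

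**Figure D1:**
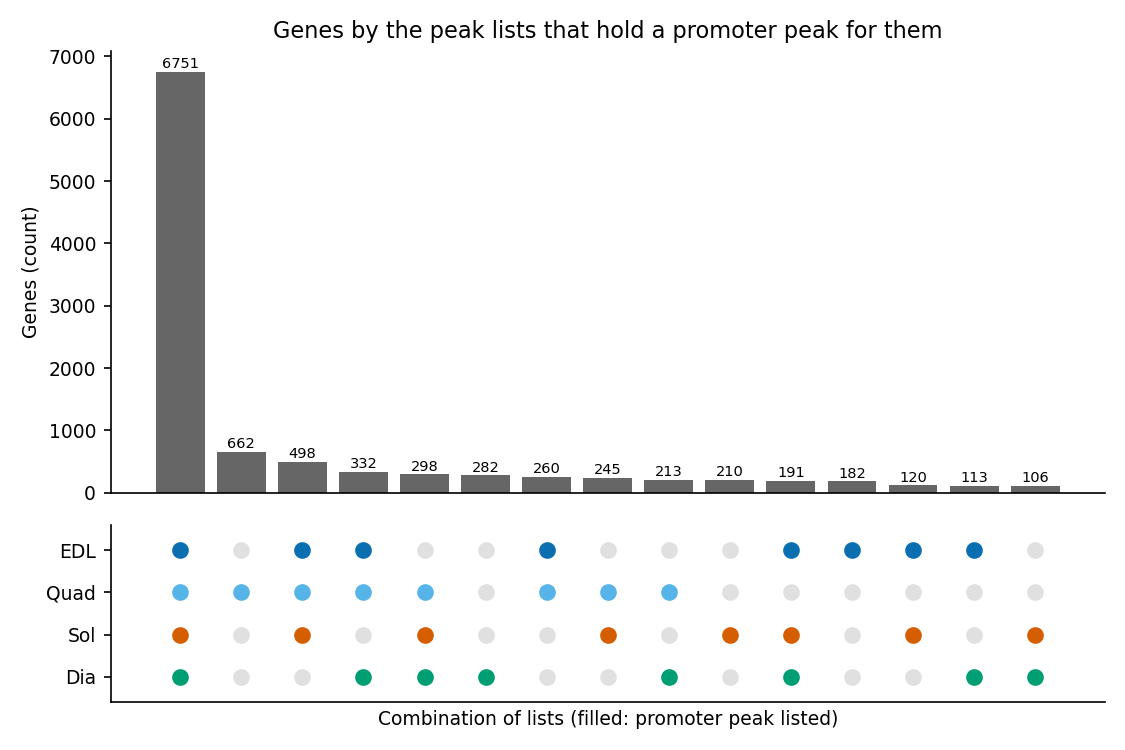
Number of genes (vertical axis) for each combination of lists that hold a promoter peak of the gene, with filled circles below each bar marking the lists. The bar of 6751 genes with a peak in all 4 lists stands far above the next, the 662 genes in Quad alone.

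For pairs of lists, EDL and Quad shared 7841 genes of 9865 in either (79.5%), EDL and Sol 81.2%, and Quad and Dia, the pair with the lowest share, 76.3%. Pairs that were the only ones to list a gene included Quad most often, with 260 genes in EDL and Quad alone, 245 in Sol and Quad and 213 in Dia and Quad, whereas 120 were in Sol and EDL, 113 in Dia and EDL and 106 in Dia and Sol. Between the fast Quad and the slow Sol, 1467 of the 9886 genes in either list (14.8%) had a promoter peak in Quad and not Sol, and 627 (6.34%) in Sol and not Quad. At 20000 peaks a list these counts were 980 and 863.

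A missing promoter call did not always mean that no peak was there. The 10463 genes lacked a call 7441 times in the 4 lists together. In 2125 of these (28.6%) another peak of the same list overlapped the promoter peak seen elsewhere, and it was annotated to a neighbouring protein-coding gene 1179 times, to a non-coding gene 209 times or to another class such as intron or exon 737 times. In 1124 (15.1%) a peak lay within 1 kb, and in 4192 (56.3%) none did. Of the 191 genes missing in Quad alone, 62.8% were overlapped and 16.2% had no Quad peak within 1 kb. Of the 498 missing in Dia alone, 28.9% were overlapped and 56.8% had no Dia peak within 1 kb. Counting any overlapping peak, a choice made after the data were seen, gave 7799 genes (74.5%) with a peak in all 4 lists and 965 with one in exactly 1. By that count the single-muscle genes numbered 562 in Quad, 167 in Dia, 126 in Sol and 110 in EDL.

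The score of a peak is the number of tags in it after normalization by HOMER. Because the lists differ in length, each peak was given a percentile among the promoter peaks of its own list, and a gene was given that of its highest-scored promoter peak. Promoter peaks had median scores of 10.7 in EDL, 10.8 in Sol and 11.7 in Quad, against 6.06, 6.21 and 5.76 for all other peaks, and Dia lay within this range on both. They made up 84.0 to 85.6% of the 1000 highest-scored peaks of each list, yet 7 to 11 other peaks in each list scored above the highest of them. The median promoter peak was centred at -55 to -50 bp from the start, where negative is upstream, and 68.2 to 69.3% lay within 100 bp of it. In 94.6 to 97.2% of the genes of a list there was only 1 promoter peak. Oxr1 had the most over the 4 lists, 15, followed by Slc25a25 with 13 and Dock9 with 12.

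Genes listed in all 4 muscles had higher percentiles than genes listed in fewer. Their medians were 56.9 (EDL), 61.1 (Quad), 57.2 (Sol) and 56.4 (Dia). Genes listed in 1 muscle had medians of 21.8 (EDL), 12.0 (Quad), 12.9 (Sol) and 12.4 (Dia). The share of genes found in all 4 lists went with the score, from 45.3% in the lowest 10% of EDL to 92.6% in the highest, from 20.8 to 92.2% in Quad, from 42.2 to 92.9% in Sol and from 46.7 to 92.6% in Dia. The lowest 10% of Quad held 315 of its 662 single-muscle genes. Single-muscle calls were therefore mostly weak peaks, and those with no peak of another list within 1 kb were weaker still, with medians of 6.83 in EDL (69 genes), 7.64 in Quad (433), 3.24 in Sol (97) and 4.99 in Dia (136).

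**Figure D2:**
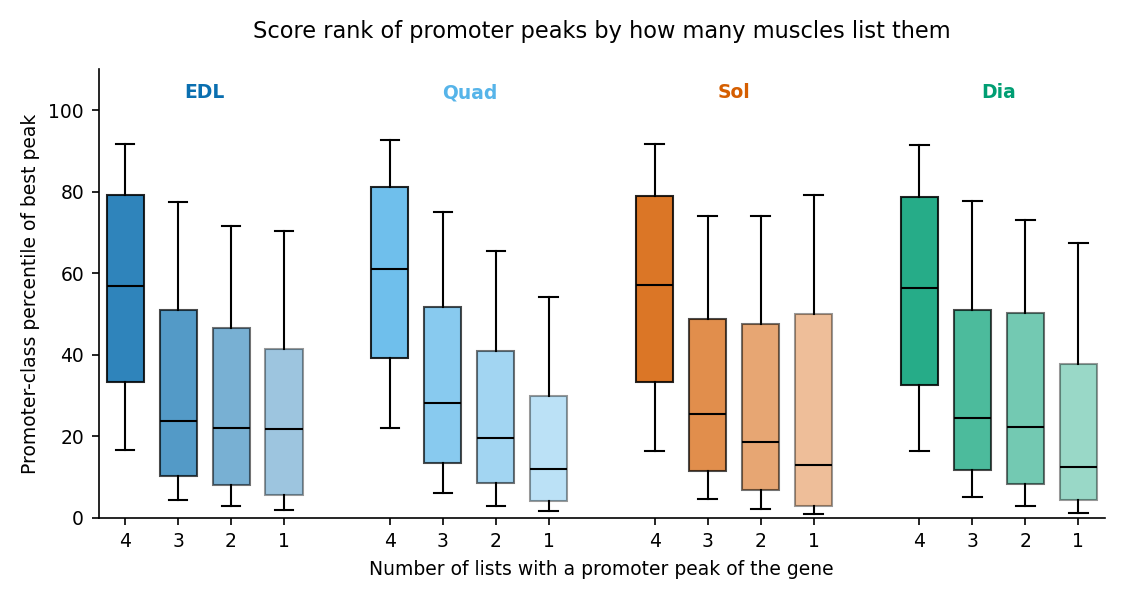
Promoter-class percentile of the best promoter peak of each gene (vertical axis) in each list, split by the number of lists with a promoter peak of the gene. Boxes span the quartiles, lines inside are medians and whiskers run from the 10th to the 90th percentile of genes. In each muscle the box for 4 lists sits highest, with medians from 56.4 to 61.1.

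Score order was similar in the 4 muscles. Across the genes shared by a pair of lists, Spearman's rho between scores ran from 0.907 (Quad and Dia, 7594 genes) to 0.923 (Quad and Sol, 7792 genes). These are descriptions across genes, which are not replicates and share gene annotation and base composition. For the 6751 genes in all 4 lists, the highest and lowest percentile of a gene differed by a median of 14.9 points. The range was at most 10 points in 2088 genes, and over 50 in 22. The 4 best peaks of a gene usually marked the same site, with a median distance of 67.0 bp between the outermost centres, but in 87 genes they were over 1 kb apart, at different start sites of the gene.

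The highest promoter peak of every list was that of Sp1, which encodes the GC-box binding factor, with scores of 42.2 (EDL), 46.4 (Quad), 40.7 (Sol) and 39.2 (Dia). Cdca2, which encodes a protein phosphatase 1 partner active on mitotic chromosomes, ranked 4, 2, 4 and 2 in the same order. Zfp143, a zinc-finger activator, ranked 3, 3, 7 and 9. Hip1, which encodes an endocytic adaptor, ranked 2 in EDL and 32 in Dia, and Mtmr4, a phosphoinositide phosphatase, ranked 2 in Sol and 57 in Dia. Rab40c, a small GTPase of the Rab family, and Tomm40, the pore of the mitochondrial import complex, completed the genes among the first 3 of any list, at best at ranks 3 and 3. None of these genes is restricted to muscle. In all, 578 genes stood above percentile 90 in each of the 4 lists.

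Base composition separated promoter peaks from other peaks more than it separated the muscles. In the 200 bp around the peak centre, promoter peaks of genes in all 4 lists had a median GC content of 64.0 to 64.5% and a median ratio of observed to expected CpG of 0.828 to 0.834. Peaks outside promoters had medians of 51.5 to 52.5% and 0.229 to 0.261. A CpG ratio above 0.6, a usual mark of a CpG island, was found in 83.4 to 83.9% of the genes in all 4 lists, in 65.7% of those in EDL alone, 65.1% of those in Quad alone, 65.2% in Sol alone and 55.3% in Dia alone. Among 200 bp windows at RefSeq promoters, from 150 bp upstream to 50 bp downstream of the start, the ratio was above 0.6 in 24.4% of 9022 genes with no promoter peak in any list. That share was 64.1, 72.2, 73.1 and 83.0% for genes in 1, 2, 3 and 4 lists. Within a list the percentile had almost no relation to the CpG ratio, with Spearman's rho from 0.0444 to 0.0936 across 8285 to 9257 genes.

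One motif followed the score closely. A CCAAT box on either strand lay within the 200 bp window of 23.8% of the genes in the lowest 10% of the EDL list (95% Wilson interval 21.1 to 26.7) and of 70.2% in the highest 10% (67.0 to 73.1). The shares were 22.7 and 69.5% in Quad, 22.5 and 71.6% in Sol and 24.6 and 69.0% in Dia. Over the best promoter peaks of all genes of a list they were 35.1 to 37.1%, in RefSeq promoters of the same length 30.6%, and in peaks outside promoters 22.2 to 23.4%. At least 2 copies were present in 43.8 to 44.6% of the highest 10% and in 3.94 to 6.81% of the lowest. The copies of the highest 10% had median positions of -102 to -94 bp from the start. Those of the lowest 10% had medians of -62 to -59 bp, and those of all genes -73 to -71 bp. Copies were sought only in the 200 bp around the peak centre, so these positions depend on where the peaks were centred. Peak centres were not compared between the lowest and the highest 10%. Binding of the factor NF-Y was not tested. The Zfp143 sequence above carries a CCAAT box at -96, and the EDL peak of Sp1 one at -456.

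**Figure D3:**
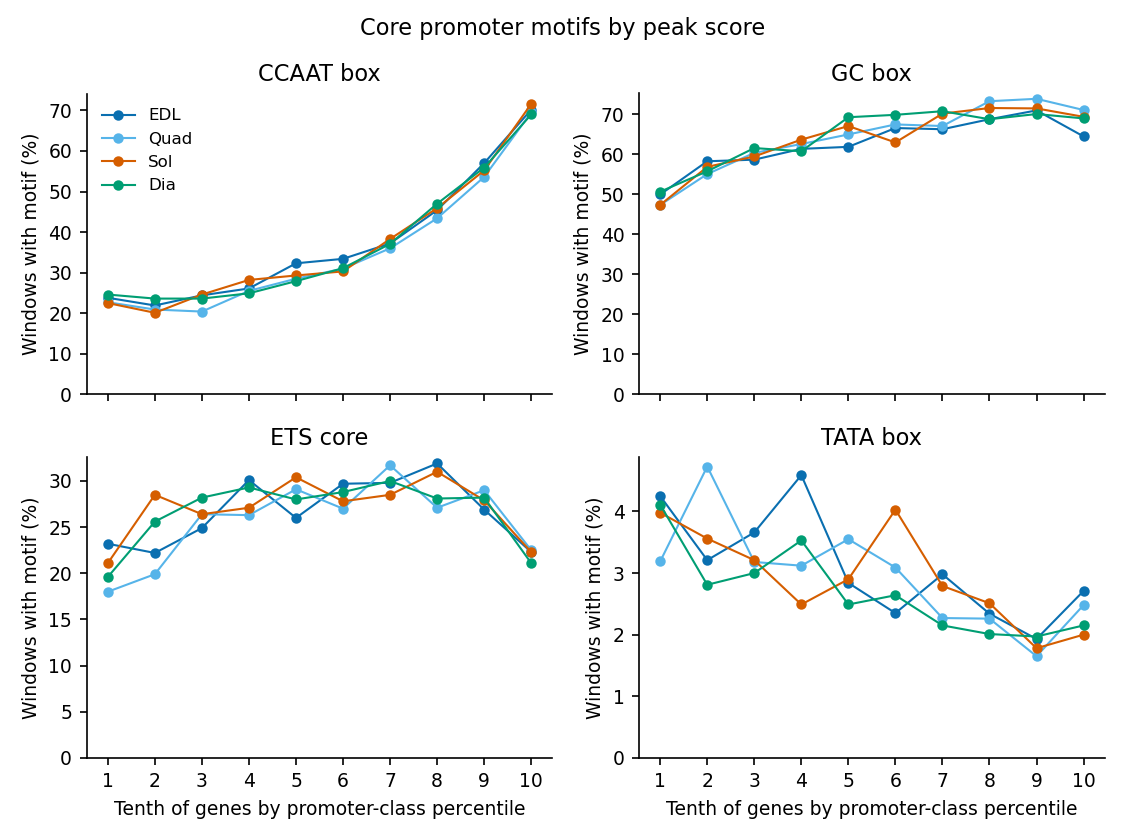
Share of genes whose 200 bp window around the best promoter peak holds the CCAAT box, GC box, ETS core or TATA box (vertical axis, percent, each from 0) in each step of 10% of the genes of a list by promoter-class percentile (1 is lowest). The 4 lines are the 4 lists. The CCAAT box line climbs from 22.5 to 24.6% in the lowest 10% to 69.0 to 71.6% in the highest in each list.

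In percentage points, the other motifs differed less between the lowest and the highest scores. Against RefSeq promoters of the same length, EDL promoter peaks held the GC box in 62.6% against 42.7%, the ETS core in 26.7 against 16.1%, the NRF1 core in 3.37 against 2.22%, the CRE in 3.47 against 2.14%, the MEF2 site in 0.876 against 1.09% and the TATA box in 3.09 against 8.87%. A TATA match can lie inside a MEF2 match. The GC box was in 47.3 to 50.6% of the lowest 10% and 64.4 to 71.0% of the highest. The ETS core was in 18.0 to 23.2% and 21.1 to 22.5%. The NRF1 core CGCATGCG was in 1.49 to 3.63% of the lowest 10% and 0.539 to 1.30% of the highest, and the CRE in 2.87 to 3.74% and 1.08 to 1.65%. The TATA box was in 3.19 to 4.25% of the lowest 10% and at most 2.71% of the highest. The MEF2 site, rare throughout, was in 0.918 to 1.53% and 0.236 to 0.471%, a larger ratio between the ends than for the CCAAT box in EDL, Quad and Dia, and in EDL the intervals were 0.466 to 1.80 and 0.0647 to 0.856%. The CCAAT box also differed with breadth, at 38.7 to 39.7% of genes in all 4 lists against 20.9 to 29.5% of genes in 1. In the highest 20% of the percentiles this difference was small, with 63.9% (61.5 to 66.2) of 1545 genes in all 4 lists against 61.1% (52.5 to 69.0) of 131 genes in 1 to 3 lists in EDL, and in Quad 61.3 against 66.0%. In the middle 20% it was 30.5 to 34.6% against 21.8 to 23.4% over the 4 lists, with the widest gap in EDL, and in the lowest 20% it was 22.9 to 24.9% against 19.0 to 23.3%. EDL had no gap in the lowest step of 20%, at 22.9 and 22.7%, or in the step below the highest, at 41.2% in both. The TATA box was in 2.62 to 2.73% of genes in all 4 lists, 2.86 to 4.42% of genes in 1 list, 6.43 to 7.74% of peaks outside promoters and 13.8% of RefSeq promoters without a promoter peak. The MEF2 site was in 0.607 to 0.681% of genes in all 4 lists and in 1.77 to 1.96% of genes in 3 lists for EDL, Quad and Sol, against 0.244% (0.0668 to 0.884) for Dia, which is 2 of 821 genes. In 400 bp windows these shares were 2.43 to 2.94% against 1.10% (9 genes), and Dia genes in 1 list held the site in 1.77% of 200 bp windows. A match shows only that the letters are in the window.

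The labelled tissue was checked by marker genes. Of 8 muscle fibre markers, 7 had a promoter peak in EDL and in Quad, 4 in Sol and 4 in Dia, and Neb, which encodes nebulin, had none. Leukocyte (8 genes), Schwann cell (4) and cardiac (4) markers had none in any list. All 8 endothelial markers had one in at least 1 list, 2 of them in all 4, with 5 (EDL), 7 (Quad), 6 (Sol) and 2 (Dia) and list medians of class percentile from 14.0 to 22.1. The part of these cells in differences between muscles was not tested. Pecam1, an endothelial adhesion receptor, was at 18.1 in EDL, 17.0 in Quad and 15.1 in Sol. Of the 3 satellite cell markers only Cdh15 was listed, of 6 fibroblast markers only Dcn, of 3 tendon markers only Mkx, of 5 adipocyte markers Fabp4 and Pparg, and of 4 smooth muscle markers Acta2 and Myh11, each at or below percentile 17.9.

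Genes of fast fibres, which build the fast contractile apparatus and its glycolytic supply, had most promoter peaks in Quad, the longest list. Of 20, 17 had a promoter peak in Quad, 12 in EDL, 12 in Sol and 9 in Dia, where the lists held 42.2, 38.5, 38.4 and 37.8% of all coding genes, and 8 were in all 4. In Quad and not Sol there were 5, and in Sol and not Quad 0. Of all 9886 genes in either list, 14.8% were in Quad and not Sol and 6.34% in Sol and not Quad. Median class percentiles of those listed were 64.8 (EDL), 61.1 (Quad), 47.1 (Sol) and 36.9 (Dia). Myh1, Atp2a1 and Myoz1 had no promoter peak in any muscle. Among the 12 in both Quad and Sol, 10 had the higher percentile in Quad, where 62.7% of all 7792 shared genes did. Myh4, the fastest myosin heavy chain, scored 12.8 in EDL (percentile 62.7) and 10.4 in Quad (41.8), and the nearest Sol and Dia peaks were 16805 and 73678 bp away. Actn3, the fast-fibre actinin, Pvalb, the calcium buffer parvalbumin, and Eno3, muscle enolase, were called in Quad alone at percentiles 55.1, 55.8 and 61.7. Peaks of the other 3 lists lay 329 to 404 bp from that of Actn3, and over 9 kb from that of Eno3. For Pvalb the nearest peaks were 860 bp (Sol), 876 bp (Dia) and 4898 bp (EDL) away. Ldha, the lactate dehydrogenase subunit of glycolytic tissue, was at 73.0 in Quad, 53.7 in EDL, 34.3 in Sol and 23.0 in Dia. Other members had no call in the fast EDL. Tnnt3, fast troponin T, was at 76.4 in Quad and 70.9 in Sol and was not listed in EDL or Dia. Mybpc2 was listed in Quad (56.4) and Dia (26.5) only. Mylpf, the fast regulatory light chain, was at 97.1 to 99.4 in all 4, but its peak lay 2661 bp from the start given in the RefSeq promoter table, and that of Myl1, an essential light chain of fast fibres, 9481 bp.

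Several genes that define slow fibres had no promoter peak. Of 20 slow fibre genes, 12 had one in any list, where 47.7% of all coding genes did, and 7 in all 4 (35.0 against 30.8%). By list there were 10 (EDL), 9 (Quad), 10 (Sol) and 7 (Dia). In that order the lists held 38.5, 42.2, 38.4 and 37.8% of all coding genes. Myh7, Tnni1, Tnnt1, Tnnc1 and Myl2, the slow myosin, troponin and light chain genes, had no promoter peak in any muscle. Sol, however, had peaks of the intergenic class at -134 and 331 bp from the start of Myl2, both with a score of 9.37 (percentile 67.9 among all its peaks), and the other lists had none within 1 kb. Outside the promoter class, 2 Sol peaks were assigned to Myh7, and 0 in the other lists. Tnni1 had 1 such peak in EDL and 1 in Sol, Tnnt1 had 1 in Quad, and Tnnc1 had 0 in every list. Myl3, the slow and cardiac essential light chain, and Myoz2, a Z-disc calsarcin of slow fibres, were listed in Sol alone at percentiles 57.2 and 48.9, with the nearest peaks of other lists 4540 and 50063 bp away or further. Fabp3, a fatty acid carrier, and Actn2, the actinin of all fibre types, went the other way and were not listed in Sol. In that order they were at 22.1 and 25.4 in EDL and at 12.8 and 12.0 in Quad. The nearest Sol peaks were 3978 and 881 bp away, and 6 Sol peaks were assigned to Actn2 outside the promoter class. Over the list, 3 genes were in Sol and not Quad and 2 in Quad and not Sol. Of all 9886 genes in either, 6.34% were in Sol and not Quad and 14.8% in Quad and not Sol. Casq2, the slow and cardiac calsequestrin, was at 49.9 in Quad and 19.5 in Sol. Mb, which encodes the oxygen store myoglobin, was at 72.6 in Sol and 36.9 in EDL. Atp2a2, the slow calcium pump, was at 55.1 in Quad, 54.0 in Sol, 43.5 in Dia and 18.9 in EDL. Tpm3, slow tropomyosin, was nearly level, at 82.8 to 85.1. Among the 7 genes in both Quad and Sol, 2 had the higher percentile in Quad, where 62.7% of all 7792 shared genes did.

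**Figure D4:**
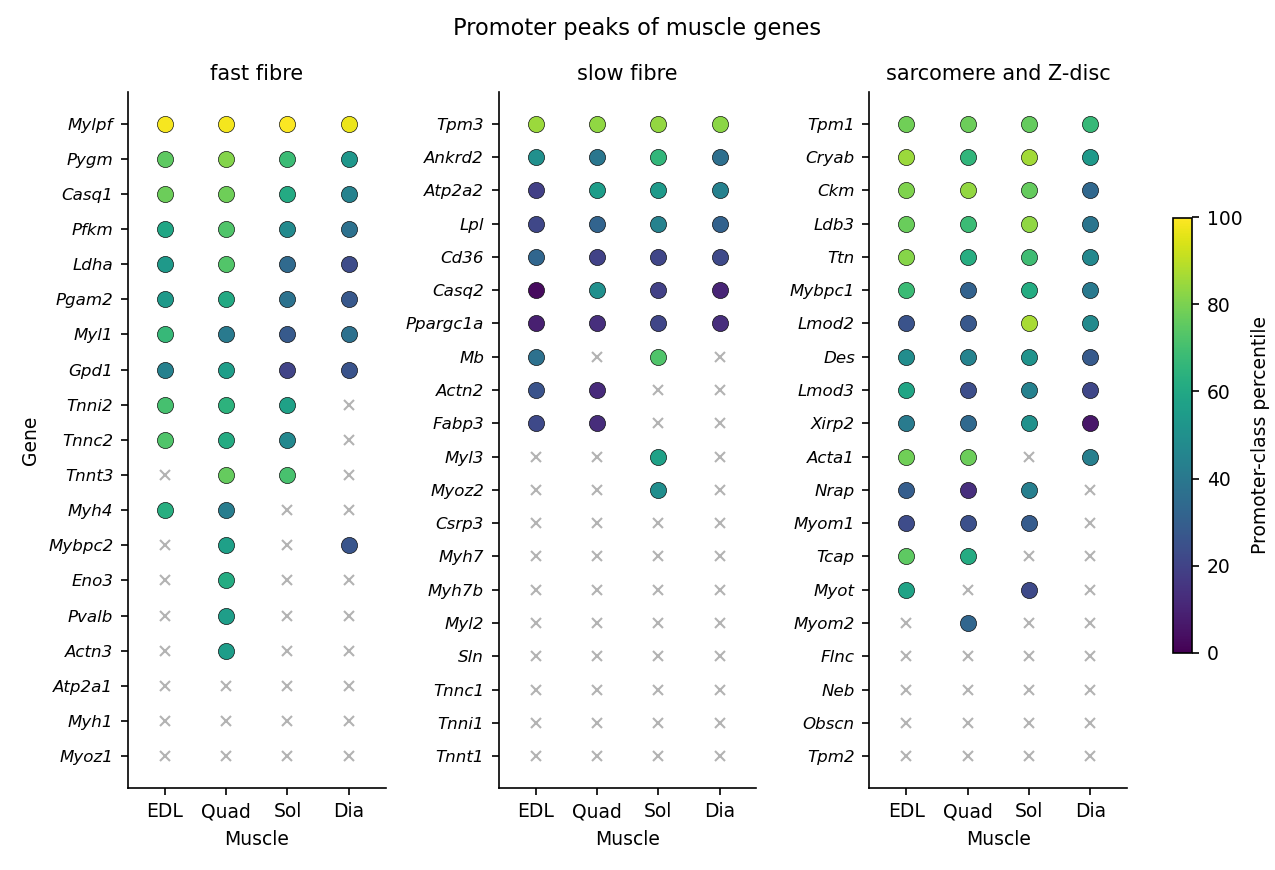
Promoter peaks of the fast fibre, slow fibre and sarcomere genes reported here (rows) in the 4 muscles (columns). Filled circles are coloured by the promoter-class percentile of the best peak from 0 to 100, and crosses mark genes with no promoter peak in that list. The slow fibre panel has 8 genes with crosses throughout, and the fast fibre panel has the fullest column in Quad.

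Sarcomere genes common to fibre types ranked lower in Dia. Of 20, 16 were listed and 10 were in all 4, where 47.7 and 30.8% of all coding genes were. Dia had the lowest percentile for 8 of these 10, where it was lowest for 30.1% of all 6751 genes. This was not particular to the sarcomere list. Among genes in all 4 lists, Dia was lowest for 6 of 8 fast fibre, 7 of 12 circadian clock and 2 of 7 slow fibre genes. Ckm, muscle creatine kinase, was at 80.7 (EDL), 83.9 (Quad), 76.3 (Sol) and 33.5 (Dia). Ttn, titin, was at 82.0, 62.3, 69.0 and 46.7 in that order. Acta1, skeletal actin, was at 78.2 in EDL, 77.4 in Quad and 42.7 in Dia and was not listed in Sol, where the nearest peak was 9653 bp away. In contrast to the fast fibre list, only 2 of the 12 sarcomere genes in both Quad and Sol were higher in Quad. Excitation-contraction coupling genes, which carry the calcium signal, had 13 of 14 listed and 7 in all 4, against the same 47.7 and 30.8%. Dia was lowest for 6 of the 7. Ryr1, the calcium release channel, was at 64.5, 41.8 and 55.8 in EDL, Quad and Sol and was not listed in Dia. Cacna1s, the voltage sensor, was listed in EDL (45.1) and Quad (30.9) only, and the nearest Sol and Dia peaks were 8159 and 873 bp away. For the dystrophin complex Dia was lowest for 2 of 6 genes, and Dag1, dystroglycan, was at 74.6 to 86.1. Dmd itself was among the weakest promoters, from 0.475 in Dia to 13.5 in Quad.

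Few promoters in the fibre, sarcomere and coupling gene lists were rich in CpG. The mean CpG ratio of a gene's windows was above 0.6 for 79.8% of all 10460 genes with one, but for 4 of 17 listed fast fibre genes, 3 of 12 slow fibre genes, 2 of 16 sarcomere genes and 2 of 13 coupling genes, with medians from 0.225 to 0.367 against 0.820. Myh4 was at 0.0993 and Myl3 at 0.0552. Low ratios were not limited to muscle genes, as endothelial markers had a median of 0.312, with 3 of 8 above 0.6. Myogenic regulators were at 0.536, with 3 of 7 above 0.6. The clock and cytosolic ribosomal lists were at 0.875 and 0.895, with 13 of 14 and 63 of 70 genes above 0.6.

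Myogenic regulators had 7 of 12 genes listed and 3 in all 4, where 47.7 and 30.8% of all coding genes were. The list thus stood above the first of these shares and below the second. Myod1, a master regulator of the muscle lineage, was at 51.1 in EDL, 44.0 in Quad and 42.6 in Sol, and the nearest Dia peak was 4764 bp away. Myf6, a regulator kept on in adult fibres, was at 42.2, 23.8 and 10.2 and had no call in Dia. Mef2a was at 70.8 to 80.6 in all 4. Myog, Myf5, Pax7, Pax3 and Eya1 had no promoter peak. Of 12 neuromuscular junction genes 3 were listed, where 47.7% of all coding genes were, with Agrn, which encodes agrin, in all 4 at 43.5 to 70.2. Chrnb1, an acetylcholine receptor subunit, had no promoter peak, but a peak annotated to a transcript end lay -535 to -485 bp from its start in all 4 lists, at percentile 98.1 to 98.3 among all peaks of a list. Ache, acetylcholinesterase, had an intron peak within 1 kb of its start in EDL and Quad.

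Hox genes, which set position along the body, had few promoter peaks in the lists of hindlimb muscles and none in that of Dia, the shortest list. Of 39, EDL had a promoter peak for 8, Quad for 3, Sol for 3 and Dia for 0. In that order the lists held 38.5, 42.2, 38.4 and 37.8% of all coding genes. In any muscle 9 were listed (23.1%, against 47.7% of all coding genes). Hoxc10, a posterior gene of the hindlimb level, was at 61.1 in EDL, 72.0 in Quad and 45.3 in Sol, and the nearest Dia peak was 32472 bp away. Hoxa10, Hoxa11, Hoxc5 and Hoxd9 were called in EDL alone at percentiles of 3.36 to 26.3. For Hoxa5 and Hoxd9 the Dia list did have a peak overlapping the promoter peak, under another gene or class. Hoxb4, with no promoter peak, had a 5′ UTR peak 321 bp from its start in Dia with a score of 9.37 and one at 358 bp in Quad with 4.35. Of 22 Hox genes with a RefSeq start, 1 had a peak of any class within 1 kb in all 4 lists. Tbx15, a limb and trunk T-box gene, was listed in EDL (45.1) and Quad (38.2), and Meis2 in Dia (36.0) and Sol (3.73). Pitx1, which marks the hindlimb, had no promoter peak.

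Circadian clock genes had high promoter peaks in every muscle. Of 16, 14 were listed and 12 were in all 4, where 47.7 and 30.8% of all coding genes were. Their median percentiles were 84.6 (EDL), 86.4 (Quad), 84.0 (Sol) and 74.8 (Dia). Nr1d2, a clock repressor, was at 98.6 to 99.8, Arntl, which encodes the activator BMAL1, at 92.1 to 94.3, and Dbp, an output factor, at 95.7 to 98.8. Clock was low, at 10.3 to 17.0, and was not listed in Sol, where the nearest peak was 581 bp away. Bhlhe41 was listed in Sol (50.2) and Dia (42.7) only, although EDL and Quad had peaks within 187 bp.

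Most genes of the cytosolic ribosome, the proteasome and oxidative phosphorylation were listed in every muscle. Of 76 cytosolic ribosomal protein genes, 70 were listed and 63 were in all 4 (82.9%, against 30.8% of all coding genes in the table), of 86 oxidative phosphorylation genes 74 and 56, of 47 proteasome genes 40 and 31, and of 77 mitochondrial ribosomal protein genes 57 and 33 (42.9%). Several genes without a call had a peak at their start under the name of another gene. Of the 6 cytosolic ribosomal genes with no promoter peak, 5 had a peak within 1 kb of their RefSeq start in all 4 lists, which carried the name of a neighbour, such as Med22 for Rpl7a, Vps52 for Rps18 and Ndufa7 for Rps28. A peak lay as close in all 4 lists for 15 of the 20 mitochondrial ribosomal genes without a call and for 4 of 12 oxidative phosphorylation genes, as with Wdr77 for Atp5pb. Zinc-finger genes of the Zfp series had 288 of 394 listed (73.1%, against 47.7%) and 207 in all 4 (52.5%, against 30.8%). Of 66 replication-dependent histone genes 43 were listed (65.2%) and 21 were in all 4 (31.8%), the latter close to the 30.8% of all coding genes.

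Receptor and keratin families of other tissues were close to absent, where 47.7% of all coding genes were listed in at least 1 muscle. Of 1106 olfactory receptor genes 4 were listed, each in 1 muscle and at percentile 6.21 or lower, and of 353 vomeronasal receptor genes only Vmn2r29 was listed, at 19.8 in EDL, 3.24 in Sol and 30.9 in Dia. Of 104 keratin and keratin-associated genes 2 were listed, Krt80 in Quad (44.0) and Krt222 in Quad (1.08) and Sol (7.45).

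**Figure D5:**
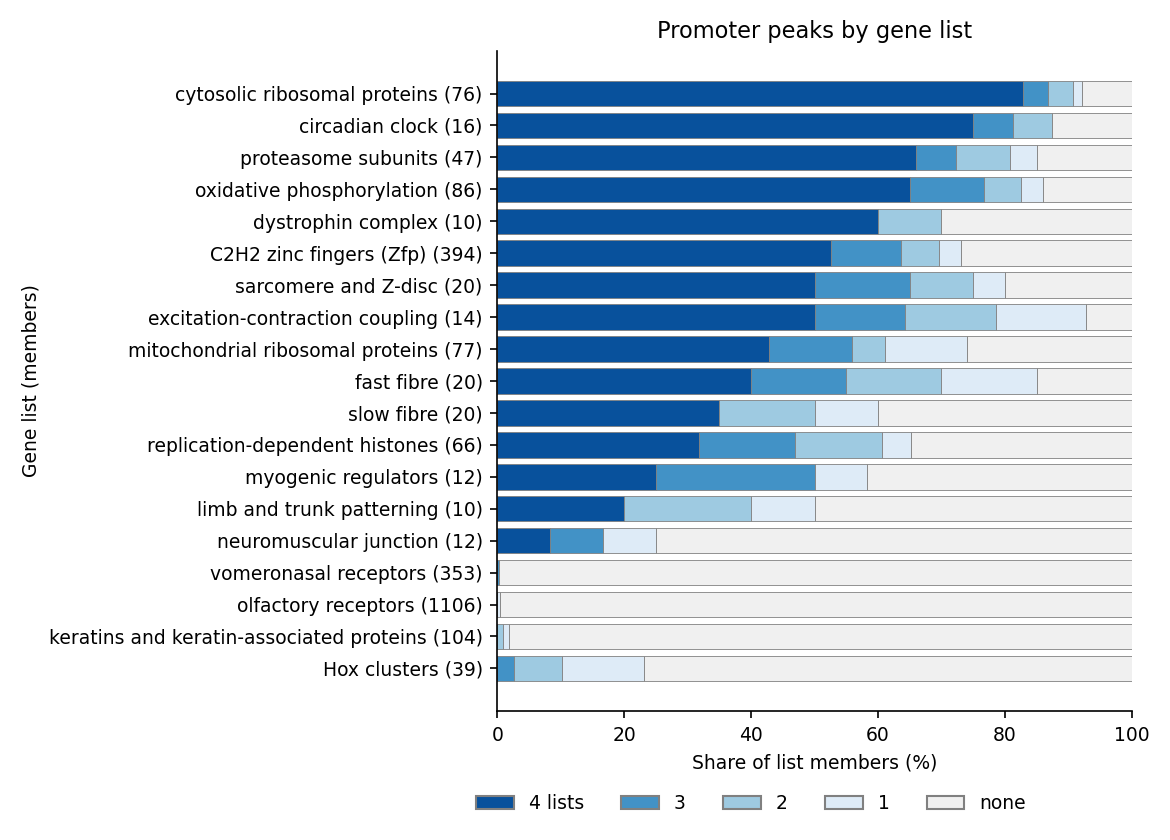
Share of the members of each gene list (horizontal axis, percent) with a promoter peak in 4, 3, 2, 1 or no list, with the number of members in brackets. Cytosolic ribosomal proteins are at the top with 82.9% in all 4 lists, and the 5 lowest bars hold at most 1 gene in all 4.

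Several promoters stood out in 1 muscle, with no peak of any class of the other lists within 1 kb. In EDL these were led by Mef2d, a MEF2-family transcription factor, with a score of 18.1 (percentile 82.2), followed by Eef1a2, the elongation factor isoform of muscle and neurons, at 53.7, and Bcl9l, a beta-catenin coactivator, at 49.2. The nearest peaks of the other lists were 8103 bp or more from the Mef2d promoter peak. In Quad they were led by Plec, which encodes the cytolinker plectin, with a score of 21.1 (85.7), with Tnrc18 at 77.8, Dusp1, a MAP kinase phosphatase induced by stress, at 75.5, and Zfp36, an early response gene for an mRNA decay factor, at 72.5. Mef2d was not without peaks elsewhere, since 3 peaks in Quad, 2 in Sol and 2 in Dia were assigned to it outside the promoter class. In Sol the highest were Gadd45g, a stress response gene, and Myl3, both with a score of 11.9 (57.2), ahead of Tmem204 at 55.8. In Dia F11r, which encodes a tight junction adhesion molecule, had a score of 11.3 (52.4), and the next, Plod2, a collagen lysyl hydroxylase, was at 31.8.

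Promoters missing in 1 muscle alone, again with no peak of that list within 1 kb, were strongest for Dia. Midn, which encodes midnolin, was at 88.1 in EDL, 81.6 in Quad and 89.7 in Sol, Sphk2, a sphingosine kinase, at 81.4, 81.9 and 91.8, and Arid1a, a chromatin remodeller subunit, at 71.6, 71.5 and 73.4. Rpl3l, the ribosomal protein isoform of striated muscle, was at 71.6, 65.9 and 64.8, and Art5, an ADP-ribosyltransferase gene, at 74.0, 63.0 and 60.8. In Sol the highest were Caskin2, at 64.5 to 76.2 elsewhere, and Acta1. In EDL they were Rhoq, a small GTPase, at 53.6 to 70.2, and Ppp1r2, a phosphatase inhibitor, at 44.0 to 64.8. The strongest promoter missing in Quad, Arid3a, reached only 18.9 to 43.5 in the others.

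Among genes called in all 4 lists, some of those with the largest rank differences between EDL and Quad on one side and Sol and Dia on the other follow. Dupd1, a dual-specificity phosphatase of muscle, was at 56.3 in EDL and 52.2 in Quad against 11.4 in Sol and 7.55 in Dia. Xrn2, an exoribonuclease that ends transcription, was at 69.4 and 63.0 against 26.9 and 29.0. In the other direction, Lmod2, a leiomodin that nucleates thin filaments, was at 25.4 and 27.3 against 86.9 and 47.6, so that Sol alone was high. Maf1, a repressor of RNA polymerase III, was at 55.6 and 72.0 against 99.1 and 99.2. Ldhb, the lactate dehydrogenase subunit of oxidative tissue, was at 28.7 and 5.47 against 64.8 and 32.6, and Atp1b1, a sodium pump subunit, at 40.6 and 22.1 against 62.0 and 63.5. The EDL and Dia values of Ldhb, 28.7 and 32.6, were close, so that Sol stood highest and Quad lowest. The peaks of Maf1 were centred up to 524 bp apart, downstream of the start in EDL and Quad and upstream in Sol and Dia.

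Dia was furthest above the other 3 at Aig1, at 53.0 against 4.32 to 10.2, and Znhit3, at 55.8 against 8.85 to 15.1. It was furthest below at Rbfox2, a splicing regulator, at 21.4 against 83.0 to 92.8, but there the best peaks of the lists were up to 153259 bp apart and so marked different start sites. Ppp2r3a and Trmt13 also had large rank differences with best peaks far apart, by 52846 and 19696 bp. At 1 site, Klhl31, a Kelch protein of muscle, was at 3.78 in Dia against 58.0 to 60.6, and Myo18b, a sarcomeric myosin, at 16.4 against 63.6 to 66.3. With 1 list per muscle the variation of such ranks between animals is not known.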

How the data were processed

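Open chromatin was measured by ATAC-seq in 4 mouse muscles, with 1 peak list deposited for each. Per the submitters' processing notes and the study's methods, the authors aligned reads to mm10 with Bowtie2 at default settings, which places a read that matches several sites at one of them, called peaks with HOMER in its factor style, and annotated each peak to 1 gene. The deposited peak score is a signal, the tag number of a peak as HOMER scaled it, the deposited focus ratio is a fraction of tags near the peak centre, and the deposited distance to the start is in bp. The study gives 1 to 2 samples a group for its ATAC-seq maps, and 2 where Quad and Sol are compared, and does not say how many went into each pooled list. Handling of the Tn5 offset and of mitochondrial reads was not given in the sources used here. Read depth is not known from the lists, and a peak that is missing was not called, which is not the same as closed chromatin. Peak width was fixed by list, at 208 bp (EDL), 188 (Quad), 206 (Sol) and 232 bp (Dia).

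Promoter peaks of protein-coding genes were taken by annotation class and gene type, genes were matched by Entrez ID, and scores were turned into percentiles within the promoter peaks of a list. Shares carry 95% Wilson intervals. No test was made, with 1 library per muscle. Base composition and motifs were read on both strands in the 200 bp around the centre of the best peak, from the NCBI RefSeq copy of GRCm38.p6, and positions refer to the start that HOMER's distance implies. RefSeq promoters were the windows from 150 bp upstream to 50 bp downstream of the start. Scripts used Python 3.11.15, pandas 2.3.3, NumPy 2.4.6, SciPy 1.17.1, pysam 0.24.0 and matplotlib 3.10.9 and were tested on simulated data.

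Named genes were the members of 29 gene lists, the 3 highest promoters of each list, the 5 highest promoters listed in or missing from each muscle alone with no peak of the lists compared within 1 kb, the 5 genes in each direction with the largest differences in percentile for EDL and Quad against Sol and Dia and for Dia against the rest, and the 3 genes with most promoter peaks, on autosomes and X. From these the text names a part, and a few members, counted in their lists, are not reported here. The genes given for neighbouring starts and in the receptor and keratin families are also members of the lists or their annotated neighbours. Members and lists were chosen with earlier results of these data known.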

Additional observations from a re-analysis of the deposited data

How the results depend on the processing

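No paired analysis was possible because each muscle had 1 library, and for the same reason no library could be left out. The share of genes in all 4 lists, 64.5%, and in exactly 1, 12.8%, became 62.8 and 13.8% with each list limited to its best 20000 peaks, 59.9 and 15.3% with the best 50% of each list, 69.5 and 11.4% with any class of peak within 1 kb of the start, 61.9 and 15.8% for merged regions with an overlap of at least 1 bp, 47.0 and 24.7% for merged regions with 50% reciprocal overlap, and 74.5 and 9.22% when any overlapping peak counted, an alternative chosen after seeing the data. With 20000 peaks, genes in Quad alone numbered 317 and in Dia alone 616, genes missing in Quad alone 317 and in Dia alone 316, and Spearman's rho ran from 0.892 to 0.908, against 0.879 to 0.897 in the best 50%, where the median percentile of genes in all 4 lists, averaged over the lists, was 59.5. Genes missing in Quad alone were 119 with any class within 1 kb and 97 with any overlapping peak, which also gave 335 genes in Sol and not Quad and 110, 126 and 167 in EDL, Sol and Dia alone. In 400 bp windows genes in all 4 lists had a GC content of 63.2%, a CpG ratio of 0.815, and the TATA box in 5.94, CCAAT box in 48.6, GC box in 78.5, ETS core in 37.8, NRF1 core in 4.72, CRE in 4.23 and MEF2 site in 1.19%, and genes in 1 list had the first 4 motifs in 7.38, 39.8, 64.8 and 28.4%, as longer windows hold more matches. A common lowest score of 3.63 and the limit to autosomes and X moved none of these results by more than their interval or 1.5 times. The variation between animals is not known, and the lists differ in length, which bears on every count of missing peaks.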
